A study of Mus musculus with 8 samples.

Results

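Keratins are the intermediate filament proteins of epithelia. Each filament is built from pairs of a type I and a type II keratin, and the pair in use differs between kinds of epithelium. Krt8 with Krt18, joined by Krt7 and Krt19, fills the single-layered epithelium of the embryonic lung, Krt14, Krt15 and Krt17 are type I keratins of basal layers, and Krt4 with Krt13 is the pair of suprabasal layers in the oesophagus and other internal stratified epithelia. Krt6a is a type II keratin of hair follicle and of wounded or rapidly growing stratified epithelium. The 10 genes described here are those of the mouse keratins Krt4, Krt6a, Krt13, Krt14, Krt15 and Krt17, taken as basal or stratified, and Krt7, Krt8, Krt18 and Krt19, taken as simple. They were chosen by name among 22180 genes with a value on the arrays, and all 10 were measured, each through the probe set with its highest mean.

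The samples were whole lungs from 8 embryos of mixed C57BL/6 x 129S6 background, taken at embryonic day 14.5 and hybridized to 1 array each. The mutants were 4 Shh-cre:Ezh2-flox/flox embryos, in which Cre from the Shh locus is meant to delete Ezh2, the histone methyltransferase of Polycomb repressive complex 2, in the lung epithelium. The controls were 4 Shh-cre embryos, so both groups carried the Cre driver, a line in which Cre sits in the Shh gene itself. Mutants 1 and 2 were littermates (litter 3), as were mutants 3 and 4 (litter 4), controls 1 and 2 (litter 1) and controls 3 and 4 (litter 2), and no litter held both genotypes.

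Values are log2 expression per probe set after RMA, a method that corrects background, makes the distributions of the arrays alike and summarizes probes. Array medians lay between 7.05 and 7.12. Values of different genes come from different probes, so the level of a gene is compared between embryos, and its place among all genes serves only as a rough guide to dim signal. In whole lung, more keratin RNA per cell and more cells of a kind cannot be told apart. Ezh2 itself had log2 values of 11.80, 11.80, 11.75 and 11.77 in mutants and 11.84, 11.93, 11.83 and 11.89 in controls, a difference of −0.09 ± 0.05 (SE) on the log2 scale (limma, Benjamini-Hochberg adjusted p = 0.652). All mutants lay below all controls by a small margin, and Ezh2 by cell type was not measured in these whole lungs. The lung markers Nkx2-1, Sftpc and Foxf1 differed by −0.04, 0.08 and −0.03 (log2), none past the test. Sftpc and Nkx2-1 mark epithelium and Foxf1 mesenchyme. These 2 epithelial markers do not stand for all: of 12 lung epithelial genes listed, 8 had a negative and 4 a positive change. Foxa1 passed as lower (−0.56), and in 5 of the 12 all mutants lay below all controls. Xist was low (6.37 to 6.74) in mutant 3 and in controls 1 and 2 and above 12.6 in the others, so sex and litter of the controls cannot be told apart.

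Of the 10 keratin genes 3 rose in mutant lungs, 0 fell and 7 did not pass an adjusted p of 0.05 by limma with litter as a random block. Over all 22180 genes tested 0.852% passed in either direction, 0.604% as higher and 0.248% as lower. The 3 genes that rose were Krt15, Krt4 and Krt17, all from the 6 basal or stratified keratins. In these 3 genes, and no other member, mutant and control values were fully separate. Of all genes 8.07% were separate in this way, 4.48% with mutants above controls and 3.6% below. None of the 4 simple keratins passed. The median log2 change was 0.60 over the 6 basal or stratified keratins and −0.002 over the 4 simple keratins, beside 0.01 over all genes tested. The 0.60 falls between 1.17 for Krt17 and 0.02 for Krt6a, so no gene of the set had a change near it. The members were picked with earlier results of these data known, so their counts are a description.

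**Figure D1:**
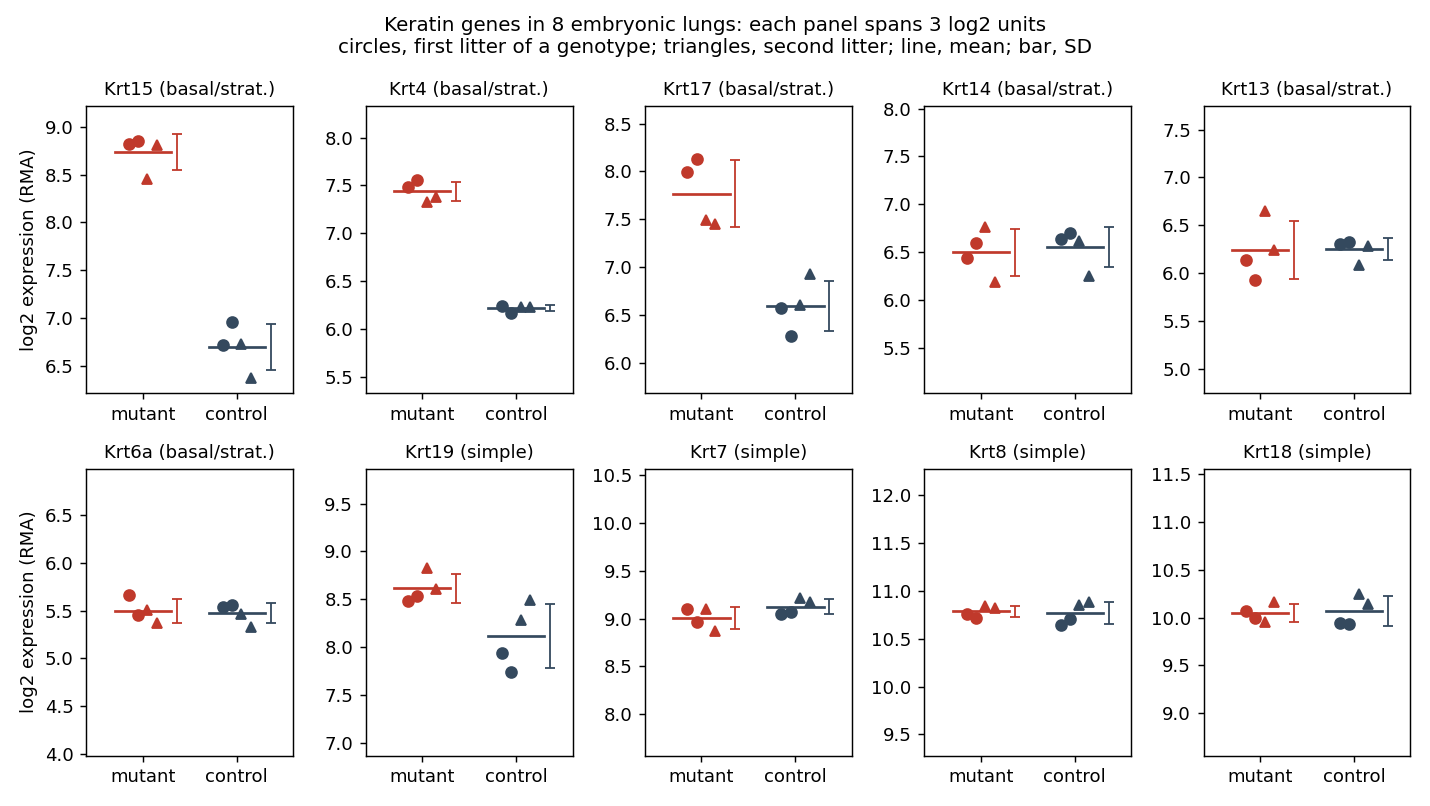
Log2 expression (y axis, RMA values, 3 log2 units in each panel) of 10 keratin genes in 4 mutant lungs (left, red) and 4 control lungs (right, dark blue). Circles are embryos of litter 3 (mutants) and litter 1 (controls), triangles those of litter 4 and litter 2, lines are means and bars SD; mutants lie apart from controls for Krt15, Krt4 and Krt17 and overlap with them for the other 7 genes.

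Krt15, a type I keratin of basal cells and of hair follicle stem cells, had log2 values of 8.82, 8.85, 8.45 and 8.81 in mutants 1 to 4, against 6.71, 6.96, 6.73 and 6.37 in controls 1 to 4. Mutant 3 was the lowest of the mutants and still lay 1.49 above the highest control, with no overlap. The means were 8.73 ± 0.19 in mutants and 6.69 ± 0.24 in controls (SD, n = 4 each). Krt15 thus rose by 2.04 ± 0.13 (SE) on the log2 scale, 4.11-fold (95% interval 3.35 to 5.05; limma, Benjamini-Hochberg adjusted p = 2.87e-05). The littermate means were 8.84 and 8.63 in mutant litters 3 and 4, against 6.84 and 6.55 in control litters 1 and 2. Both litters of each genotype therefore lay on the same side.

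Krt4, a type II keratin of the suprabasal layers of oesophagus and tongue, had log2 values of 7.49, 7.55, 7.33 and 7.38 in mutants, against 6.24, 6.17, 6.23 and 6.23 in controls. The controls spanned only 0.08 log2 units, the narrowest range of the 10 genes in either genotype, and the lowest mutant lay 1.08 above the highest control. Krt4 rose by 1.22 ± 0.07 (SE) on the log2 scale, 2.33-fold (95% interval 2.11 to 2.57; limma, Benjamini-Hochberg adjusted p = 4.83e-06). By its unadjusted p it ranked 6th of all genes tested, and Krt15 ranked 9th.

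Krt17, a type I keratin of basal cells, hair follicles and healing epithelium, had log2 values of 7.996, 8.13, 7.49 and 7.45 in mutants, against 6.57, 6.28, 6.60 and 6.92 in controls. Mutants 1 and 2 were higher than mutants 3 and 4, and the groups did not overlap, with a gap of 0.53. Krt17 rose by 1.17 ± 0.17 (SE) on the log2 scale, 2.25-fold (95% interval 1.73 to 2.94; limma, Benjamini-Hochberg adjusted p = 0.0087). Its littermate means were 8.06 and 7.47 in mutant litters 3 and 4, against 6.42 and 6.76 in control litters 1 and 2. In fits with no litter block the change was 1.47 without litter 4 and 0.88 without litter 3. Without litter 1, in a fit that also had no litter block, it was 1.00 (limma, adjusted p = 0.0654), and with all 41345 probe sets tested the adjusted p was 0.0506, so this call is less firm than those of Krt15 and Krt4.

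The other 3 basal or stratified keratins did not pass. Krt14, the type I keratin that marks basal cells of adult airway and epidermis, had log2 values of 6.44, 6.59, 6.76 and 6.19 in mutants, against 6.64, 6.70, 6.62 and 6.25 in controls. The ranges overlapped, and the log2 change was −0.06 with a 95% interval of −0.37 to 0.26. Krt13, the usual partner of Krt4 in stratified epithelium, had log2 values of 6.14, 5.93, 6.65 and 6.24 in mutants, against 6.31, 6.32, 6.08 and 6.28 in controls. Its highest and its lowest value were both from mutants, and its log2 change was −0.01 with a 95% interval of −0.32 to 0.29. Krt6a ranged from 5.36 to 5.66 in mutants and from 5.32 to 5.56 in controls, with a log2 change of 0.02 and a 95% interval of −0.16 to 0.21. These intervals exclude rises of the size seen for Krt15, Krt4 and Krt17. All 3 genes, like Krt4 and Krt17, had means under the median of all genes, 7.56, where RMA values understate changes, and the files used here hold no detection calls.

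The difference between Krt15 and Krt14 within each lung shows the contrast between these basal keratins. Krt15 minus Krt14 was 2.38, 2.26, 1.69 and 2.62 log2 units in mutants, against 0.07, 0.26, 0.11 and 0.13 in controls. Only the shift between genotypes can be read, since the probes differ. The difference averaged 2.24 ± 0.39 in mutants and 0.14 ± 0.08 in controls (SD, n = 4 each).

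Among the simple keratins, Krt8 and Krt18, the type II and type I partners of simple epithelium, did not pass. Krt8 had log2 values of 10.76, 10.71, 10.84 and 10.82 in mutants, against 10.64, 10.71, 10.85 and 10.88 in controls. The mutant values lay inside the range of the controls, and the log2 change was 0.01 with a 95% interval of −0.14 to 0.17. Krt18 had log2 values of 10.07, 9.99, 9.96 and 10.16 in mutants, against 9.94, 9.93, 10.24 and 10.14 in controls. Its mutants too lay inside the range of the controls, with a log2 change of −0.02 and a 95% interval of −0.21 to 0.17. A second probe set named Krt18 gave −0.28 ± 0.20 (SE; limma over all probe sets, adjusted p = 0.793), ranging from 7.22 to 7.77 in mutants and from 7.34 to 8.22 in controls.

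Krt7, a type II keratin of simple ducts, airway and mesothelium, had log2 values of 9.10, 8.97, 9.10 and 8.87 in mutants, against 9.05, 9.07, 9.22 and 9.17 in controls. The groups overlapped, and the log2 change was −0.12 with a 95% interval of −0.28 to 0.05.

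Krt19, the smallest type I keratin, found in simple and in some basal epithelia, differed most among the simple keratins and did not pass. Its log2 values were 8.48, 8.54, 8.83 and 8.61 in mutants, against 7.94, 7.74, 8.28 and 8.50 in controls. All mutants but mutant 1 lay above every control, and controls of litter 2 lay well above those of litter 1. The log2 change was 0.50 ± 0.15 (SE), with a 95% interval of 0.17 to 0.83 (limma, Benjamini-Hochberg adjusted p = 0.24). Against control litter 1 alone it was 0.77 (limma without a litter block, adjusted p = 0.0182), and against control litter 2 alone 0.22 (adjusted p = 0.418 in that fit). Control litter 1 was also the litter of the 2 controls with low Xist values, and with the Xist level as a covariate the log2 change of Krt19 was 0.45 (limma, adjusted p = 0.118).

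**Figure D2:**
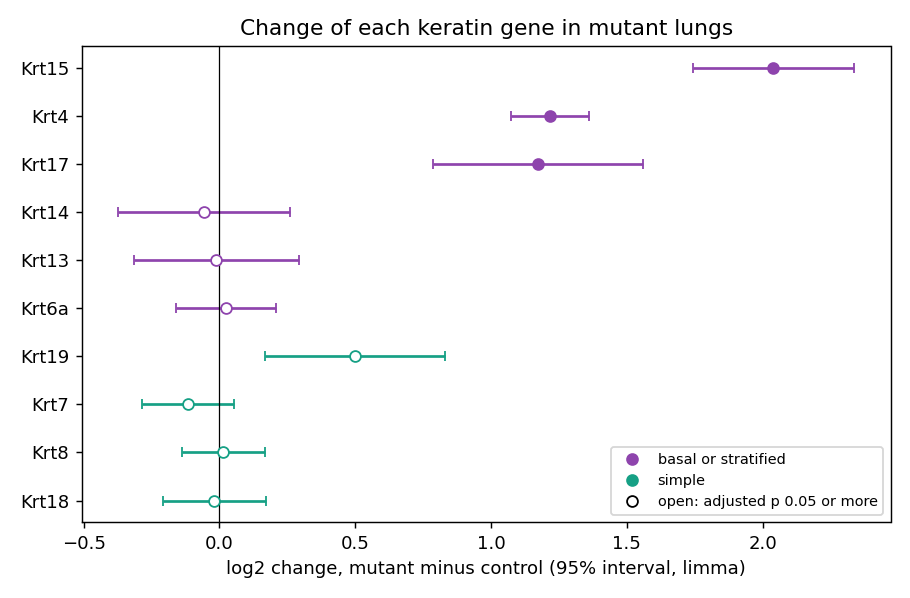
Log2 change, mutant minus control (x axis), of each keratin gene, with the 95% interval from limma; filled points passed an adjusted p of 0.05 and open points did not. The intervals of Krt15, Krt4 and Krt17 lie between 0.79 and 2.34, while those of Krt14, Krt13, Krt6a, Krt7, Krt8 and Krt18 span 0.

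Averaged over its genes within each lung, the basal or stratified set had mean log2 values of 7.09, 7.08, 7.03 and 6.91 in mutants, against 6.33, 6.33, 6.29 and 6.23 in controls. The simple set had 9.61, 9.55, 9.68 and 9.61 in mutants, against 9.39, 9.36, 9.65 and 9.67 in controls. The basal or stratified set was thus 0.73 log2 units higher in mutants with no overlap, and the simple set 0.09 higher with overlap. The higher mean of the first set came from Krt15, Krt4 and Krt17, as Krt6a, Krt13 and Krt14 had 0.02, −0.01 and −0.06. The basal or stratified mean minus the simple mean was −2.59 ± 0.11 in mutants and −3.22 ± 0.21 in controls (SD, n = 4 each), a shift of 0.64 log2 units. It ranged from −2.71 to −2.47 in mutants and from −3.44 to −3.03 in controls. No test is given for this score, as its genes were chosen with results known. The shift was 0.81 without control litter 1 and 0.46 without control litter 2, since the simple keratins were lower in litter 1.

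The simple keratins moved with the other epithelial markers in the controls. The mean of 21 general epithelial markers was 9.14 and 9.13 in controls 1 and 2 and 9.32 in each of controls 3 and 4, and was 9.07 to 9.13 in mutants. Krt8, Krt18 and Krt19 were likewise lower in control litter 1 than in control litter 2, by 0.19, 0.26 and 0.55 log2 units in littermate means. None of the 21 markers passed by limma, 9 of them had an unadjusted p under 0.05, as did 9.87% of all genes tested, 17 of 21 had a negative log2 change, and their median was −0.12. Among them Epcam, the epithelial adhesion molecule, gave −0.26 and Cdh1, E-cadherin, −0.02, while the change furthest from 0 was that of the mucin gene Muc1 (−0.76; limma, adjusted p = 0.0716), which passed without control 1, without control 2 and in some other alternatives. The part of the epithelial share of each lung in the keratin values was not tested. The mean of the 21 markers differed by −0.13, mutant minus control. Subtracting it from each array therefore raises every log2 change alike and cannot shrink a rise. After this scaling the median change of all genes was 0.14. The log2 changes were 2.17 for Krt15, 1.35 for Krt4 and 1.30 for Krt17, and all 3 passed.

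The keratin genes lie in gene clusters, type I on chromosome 11 and type II on chromosome 15, where Krt18 also lies beside Krt8. Gene order follows RefSeq annotation of GRCm38.p6. Krt15 lies between Krt13 and Krt19, whose log2 changes were −0.01 and 0.50, and neither passed. Krt17 lies between Krt16, with 0.08, and Krt42, with −0.004, and neither passed. Krt4 lies between Krt76, with 0.12, and Krt79, with 0.08, and neither passed. Each change that passed thus stood alone among its measured neighbours. Among 16 measured genes listed around the chromosome 11 cluster and 14 around that on chromosome 15, none of which is a member, 0 passed, with 2 in each list at an unadjusted p under 0.05.

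**Figure D3:**
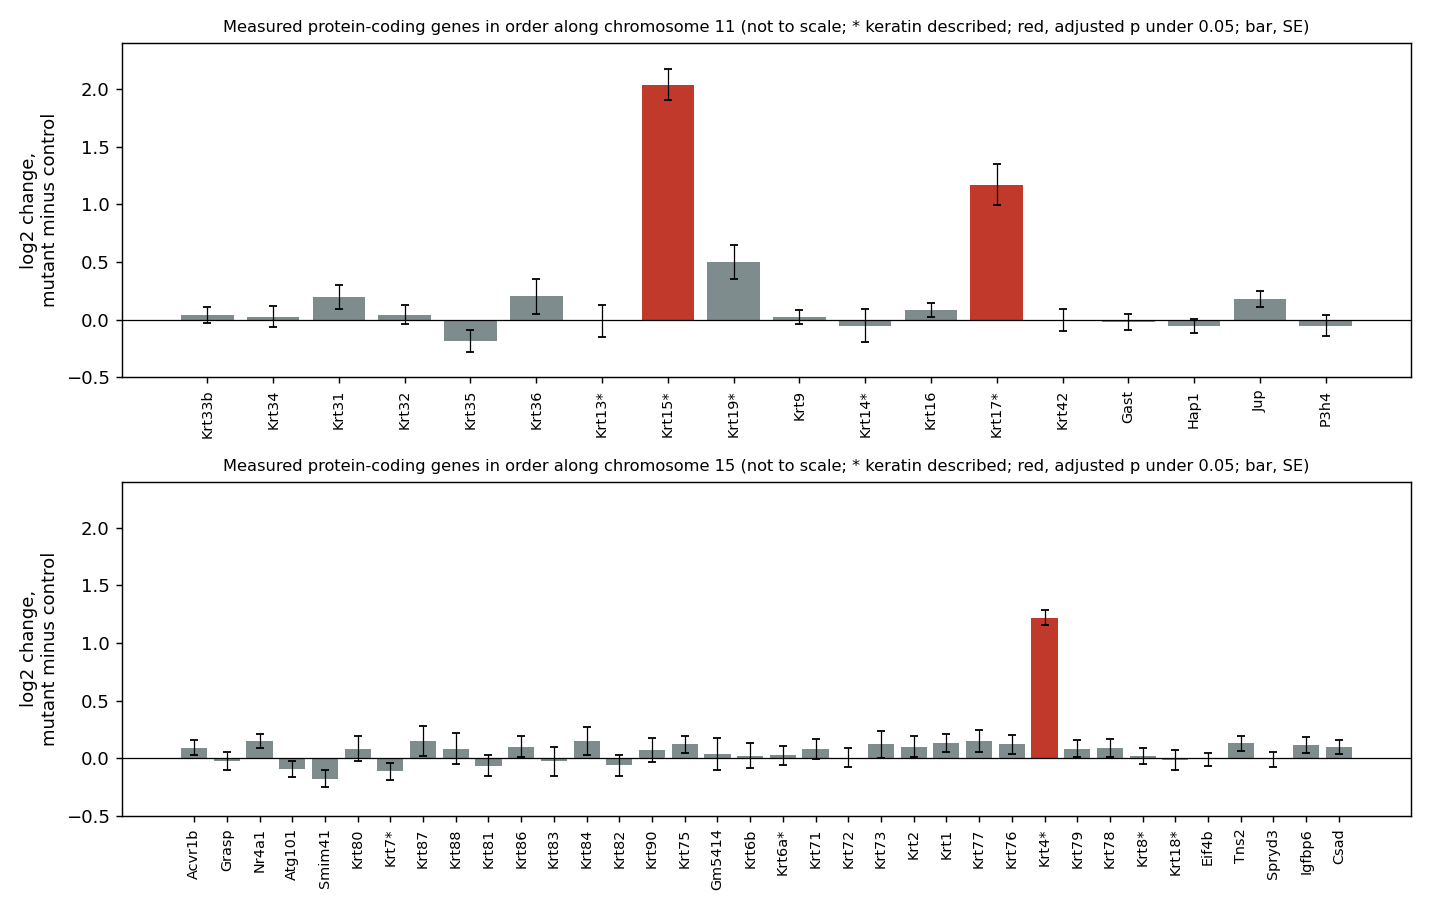
Log2 change, mutant minus control (y axis, bar SE), of measured protein-coding genes in their order along chromosome 11 (top) and chromosome 15 (bottom), with no scale of distance; an asterisk marks the 10 keratins and red an adjusted p under 0.05. Krt15 and Krt17 on chromosome 11 and Krt4 on chromosome 15 stand above neighbours whose changes lie between −0.18 and 0.50.

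The start regions of Krt13 and Krt14, which lie beside and near Krt15 and did not pass the test, and of Krt8 and Krt18, the adjacent partner pair, are shown as RefSeq gives them for GRCm38.p6, from 250 bases before to 50 after the start of transcription. Capitals mark matches on either strand to the TATA box TATAAA, the GC box GGGCGG, the AP-1 motif TGANTCA, the AP-2 motif GCCNNNGGC and the Grainyhead motif AACCGGTT.
Krt13 (the first of its listed starts), chr11:100121517-100121816, minus strand: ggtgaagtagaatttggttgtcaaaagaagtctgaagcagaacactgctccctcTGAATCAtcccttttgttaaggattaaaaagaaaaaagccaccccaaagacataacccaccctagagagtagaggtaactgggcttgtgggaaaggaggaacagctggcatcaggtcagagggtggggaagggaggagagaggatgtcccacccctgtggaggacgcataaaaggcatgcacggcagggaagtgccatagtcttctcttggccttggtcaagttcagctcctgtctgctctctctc
Krt14, chr11:100205981-100206280, minus strand: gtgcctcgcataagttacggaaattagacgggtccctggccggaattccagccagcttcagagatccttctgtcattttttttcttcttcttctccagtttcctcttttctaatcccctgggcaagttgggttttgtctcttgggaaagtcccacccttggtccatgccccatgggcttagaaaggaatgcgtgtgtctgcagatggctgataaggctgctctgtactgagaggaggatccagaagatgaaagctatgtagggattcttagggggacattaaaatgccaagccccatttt
Krt8, chr15:102004293-102004592, minus strand: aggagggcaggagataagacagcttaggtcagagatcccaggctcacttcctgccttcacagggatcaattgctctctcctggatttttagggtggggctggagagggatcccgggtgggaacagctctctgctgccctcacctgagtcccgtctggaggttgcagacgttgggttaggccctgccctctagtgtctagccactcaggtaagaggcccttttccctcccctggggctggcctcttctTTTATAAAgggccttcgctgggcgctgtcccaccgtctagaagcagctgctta
Krt18, chr15:102027966-102028265, plus strand: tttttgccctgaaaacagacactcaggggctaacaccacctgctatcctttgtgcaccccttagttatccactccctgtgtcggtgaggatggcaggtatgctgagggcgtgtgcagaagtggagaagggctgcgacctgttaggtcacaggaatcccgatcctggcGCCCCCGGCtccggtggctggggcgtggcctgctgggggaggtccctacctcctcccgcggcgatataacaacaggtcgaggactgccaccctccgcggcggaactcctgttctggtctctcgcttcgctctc
Sequences were matched for 5 of the 10 genes, the fifth being Krt7; Krt4, Krt6a, Krt15, Krt17 and Krt19 had no entry. The Krt13 window shown held 1 AP-1 match and 2 CpG dinucleotides. That of its second listed start, not shown, held 2 AP-1 matches and 5 CpG. The Krt14 window held none of the motifs and 5 CpG. The Krt8 window held a TATA box, which reads on both strands in overlapping letters, and 6 CpG. The Krt18 window held 1 AP-2 match and 17 CpG. Of all 32851 windows of this length, 13.6% held the TATA box, 35.7% the GC box, 7.81% the AP-1, 16.6% the AP-2 and 0.146% the Grainyhead motif, and the median window held 7 CpG. The low CpG count of the Krt13 window shown and the higher count of the Krt18 window are descriptions of these letters only.

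Outside the 10 members no listed keratin passed. Of 20 further type II keratins listed 1 had no value, and Krt5, a type II keratin, was not among those measured. Of 22 further type I keratins and 19 further type II keratins measured, 0 passed and 0 had an unadjusted p under 0.05 by limma, and their log2 changes lay between −0.18 and 0.20. Of these 41 genes 31 had a positive change, with a median of 0.08, beside 52.9% positive over all genes. Krt31, a hair keratin, was the exception among the alternatives, as it passed without litter 1 and with no litter block (log2 change 0.38; limma, adjusted p = 0.0469). The count of positive changes rested on single embryos and litters, with 23 positive without mutant 3, 24 without litter 2 and 16 without litter 4. The keratins of cornified skin, Krt1 and Krt10, stood at 0.13 and 0.03 (log2). Of 15 other intermediate filament genes 0 passed, 3 had an unadjusted p under 0.05, and Vim, vimentin of mesenchymal cells, had 0.09.

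Genes for proteins that hold keratin filaments at the cell border mostly did not pass. Of 20 desmosome and plakin genes 1 rose and 0 fell. An unadjusted p under 0.05 by limma was found for 5 of the 20, beside 9.87% of all genes. A positive change was found for 15 of the 20, beside 52.9% of all genes. Perp, a desmosome protein and p63 target, had log2 values of 8.70, 8.70, 8.48 and 8.51 in mutants, against 7.62, 7.64, 7.75 and 7.51 in controls, with no overlap. It rose by 0.96 ± 0.08 (SE; limma, Benjamini-Hochberg adjusted p = 0.000136). Jup, plakoglobin, differed by 0.18 (log2) without passing. The median over these 20 genes was 0.06. Of 9 hemidesmosome and basement membrane genes 1 rose, Itgb4, the integrin that anchors basal keratins, by 0.53 ± 0.08 (SE; limma, adjusted p = 0.0132). That call was lost without control 4 (limma, adjusted p = 0.078) and held in 22 of 26 alternatives. Its partner Itga6 stood at 0.09 (log2), short of the test. An unadjusted p under 0.05 was found for 2 of these 9 genes.

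Of 17 measured regulators of keratin genes 4 rose and 0 fell, with a median log2 change of 0.23. An unadjusted p under 0.05 by limma was found for 9 of the 17, beside 9.87% of all genes. Grhl3, a Grainyhead factor of epidermal barrier formation, had log2 values of 8.53, 8.48, 8.27 and 8.28 in mutants, against 7.24, 7.21, 7.52 and 7.43 in controls, and rose by 1.04 ± 0.09 (SE). Like Krt17, it was higher in mutants 1 and 2 than in mutants 3 and 4. Tfap2a, the AP-2 factor of surface ectoderm, rose by 0.97 on the log2 scale, Trp63, which encodes p63 of basal cells, by 0.71, and Ovol1, an epithelial zinc finger factor, by 0.41. The adjusted p-values by limma were 0.000225 for Grhl3, 0.00114 for Tfap2a, 0.00148 for Trp63 and 0.00759 for Ovol1. Klf5, an epithelial Krüppel-like factor, and Hes1, a Notch target, differed by 0.28 and −0.06 (log2) without passing. Other listed genes of the same families did not pass either. The Grainyhead genes Grhl2 and Grhl1 had −0.18 and −0.16, the AP-2 genes Tfap2b and Tfap2c 0.54 and 0.06, and Ovol2 0.03. In Tfap2b all mutants lay above all controls, and in Grhl2 all lay below. Tfap2b passed without mutant 2, without litter 3 and the litter block, and with the Xist covariate. Ovol1 lost its call without litter 1 and without litter 4, in fits that also had no litter block, and with littermates averaged, at adjusted p of 0.0586, 0.0692 and 0.107 by limma.

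Markers of cornified stratified epithelium did not pass with Krt4 and Krt15. Of 19 such genes 0 passed, 3 had an unadjusted p under 0.05, and their median log2 change was 0.05. Sprr1a, of the cornified envelope, had 0.36 and passed without a litter block and with the Xist covariate. Sfn, stratifin, had 0.11 and Tgm1, a transglutaminase that crosslinks the cornified envelope, 0.18.

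**Figure D4:**
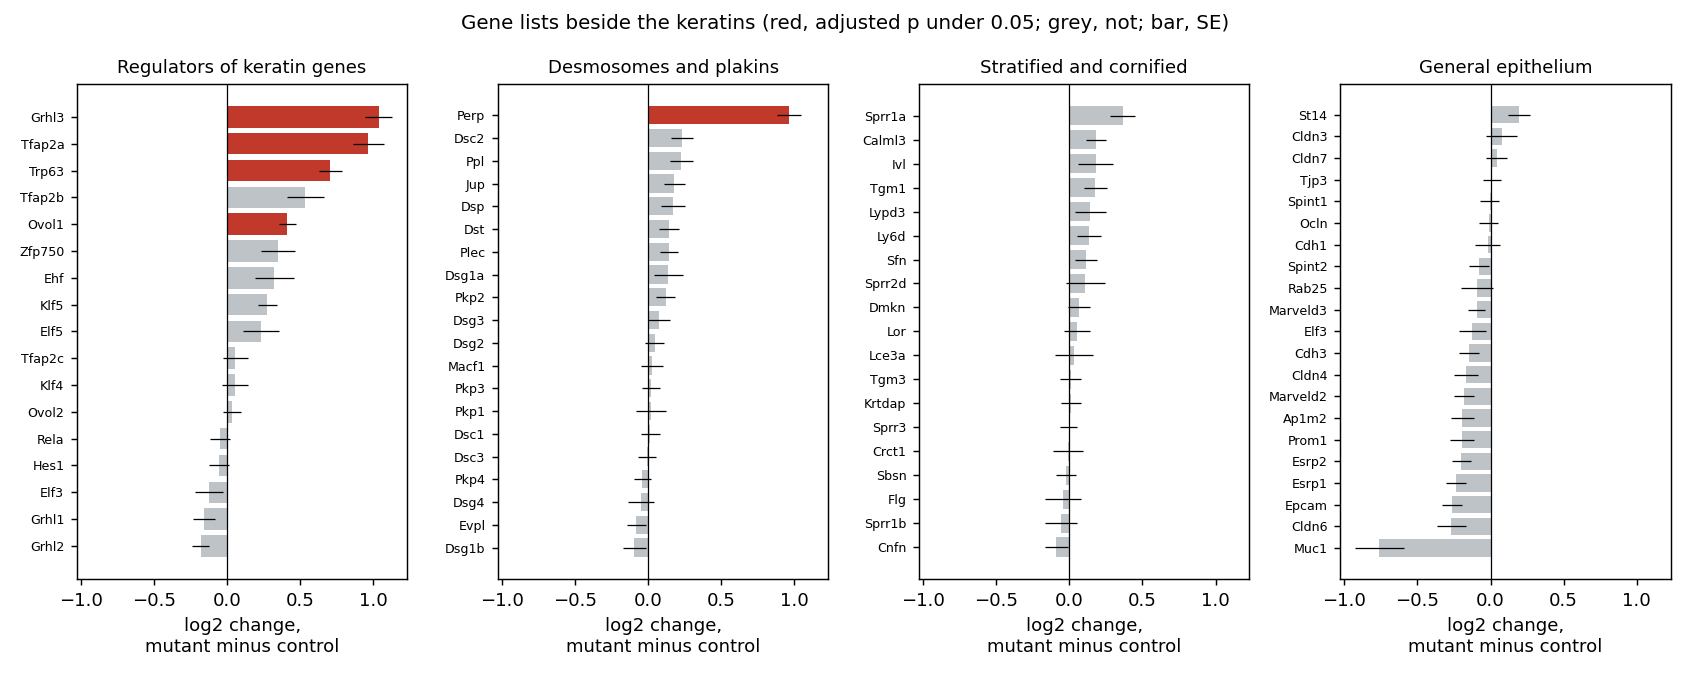
Log2 change, mutant minus control (x axis, bar SE), of regulators of keratin genes, desmosome and plakin genes, cornified markers and general epithelial markers; red bars passed an adjusted p of 0.05 and grey bars did not. Grhl3, Tfap2a, Trp63, Ovol1 and Perp are the only red bars among these 4 lists, and 17 of 21 general epithelial markers lie below 0.

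A dissected lung can carry other keratin-bearing tissue. Of 10 oesophagus markers 2 rose and 0 fell, Pax9, a regulator of foregut endoderm, by 0.78 and Ecm1, an extracellular matrix gene, by 0.39, and the call of Ecm1 held in only 10 of 26 alternatives, at an adjusted p of up to 0.139 by limma. Sox21 and Sim2, also of that list, stood at 0.17 and 0.09 (log2), short of the test. The mean of the oesophagus list was 7.43 to 7.57 in mutants, against 7.31 to 7.36 in controls. That mean includes Pax9 and Ecm1, the largest changes of the list, whose median log2 change was 0.08. Of 12 skin and hair markers 0 passed and 2 had an unadjusted p under 0.05, and the list mean was 7.09 to 7.18 in mutants, against 6.96 to 7.10 in controls. Of 10 mesothelial markers 1 rose, Upk1b, by 0.46, with a call that held in 20 of 26 alternatives (limma, adjusted p up to 0.0983), while Msln, Upk3b, Wt1 and Lrrn4 had 0.17, 0.08, −0.01 and 0.001 and did not pass. The mesothelial mean was 8.30 to 8.37 in mutants, against 8.22 to 8.33 in controls. The part of carried tissue in the keratin changes was not tested. Of 12 lung epithelial genes 0 rose and 1 fell, Foxa1, a forkhead factor of lung epithelium, whose log2 change was −0.56 ± 0.06 (SE; limma, adjusted p = 0.00107). With the epithelial marker mean subtracted, which raises every log2 change alike, it was −0.43 and no longer passed (limma, adjusted p = 0.0925). Foxa1 was not alone in direction: 6 of the 12 had an unadjusted p under 0.05 by limma, beside 9.87% of all genes. In 5 of the 12 all mutants lay below all controls, beside 3.6% of all genes, and in 1 all lay above, beside 4.48%. Of 9 lung mesenchymal genes 0 passed and 1 had an unadjusted p under 0.05.

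Predicted genes, clones, microRNAs, Xist, Tsix and genes of the Y chromosome were left out, but other genes of the X chromosome were not. Genes with the pattern most like the keratins were then ranked by Pearson correlation of log2 value over the 8 arrays. For Krt15 these were Adamtsl3 (r = 0.992), Clca3b (0.990), Eda2r (0.989), Perp (0.988) and Krt4 (0.983). For Krt4 they were Npy2r (0.992), Perp (0.989), Cbr2 (0.988), Dglucy (0.988) and Adamtsl3 (0.987). For Krt17 they were Fermt1 (0.974), Lonrf1 (0.972), Pof1b (0.969), Ptpdc1 (0.961) and Grhl3 (0.961). With genotype means removed, r with Krt17 lay between 0.78 and 0.85 for its 5 genes. With Krt15 it was 0.65 to 0.74 for 4 of its genes and 0.28 for Krt4. With Krt4 it was 0.61 for Npy2r, 0.67 for Perp and 0.34 for Adamtsl3, and −0.12 for Cbr2 and −0.11 for Dglucy. For Krt8 they were Skint1 (0.959), Med25 (0.951), Abca8a (0.951), Pecam1 (0.936) and Apbb1 (0.929), whose log2 changes were all between −0.01 and 0.05. All points share 8 arrays from 4 litters, so these values describe the embryos only.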

How the data were processed

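Total RNA of 8 whole embryonic lungs was measured on 1-colour Affymetrix arrays, 1 per embryo. What the authors deposited is log2 RMA output of oligo for every probe set, per the submitters' processing notes, which also name limma. No version or option is given there. Arrays correlated at 0.986 to 0.995, and their number limits the precision.

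The platform annotation gave 1 symbol for 23521 of 41345 probe sets and several for 1814, and did not list 16010. Symbols were matched by gene number to RefSeq (23328 found, 0 updated). Where a gene had several probe sets, that of highest mean was kept, leaving 22180 genes.

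The 2 genotypes were set against each other in limma 3.58.1 (R 4.3.3), where litter was a random block at an estimated correlation of 0.153, variances were moderated by empirical Bayes, and p-values were Benjamini-Hochberg adjusted over all 22180 genes. Tests were two-sided at an adjusted p of 0.05. Replicate numbers did not pair mutants with controls: deviations of same-numbered embryos correlated at −0.27 to 0.03. Named genes were all 10 members, and of each list those that passed and up to 3 others by level. Further members of a list, neighbours in the genome and examples were named after their values were seen. The members and lists were chosen with earlier results of these data known. Python 3.11.15 with matplotlib 3.10.9 drew the figures. Alternatives covered litters, embryos left out, dim genes, probe sets, scaling, the variance prior, array weights, Xist and the threshold.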

Additional observations from a re-analysis of the deposited data

Results flagged for a closer look

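Among 48 groups of 4 values tested, 3 held an embryo far from the rest of its group. Chance alone flags about 1 in 20 groups, which is 2.4 here. Mutant 3 was the lowest of the mutants for Krt15, at a log2 value of 8.45 beside 8.81 for the next. Control 3 was the lowest of the controls for Krt13, at 6.08 beside 6.28. Control 1 was the highest of the controls for Krt42, a type I keratin, at 7.72 beside 7.58.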

How the results depend on the processing

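The calls of Krt15 and Krt4 held in all 26 and 25 alternatives that gave a value, with log2 changes of 1.90 to 2.18 and 1.13 to 1.35. That of Krt17 held in 23 of 25 (0.88 to 1.47), and was lost without litter 1 and with all probe sets tested. The alternatives counted for each gene include an adjusted p of 0.1, the same fit at a looser cut, which could not lose a call. Averaging the probe sets of a gene left the values of Krt15, Krt4 and Krt17 unchanged, as each had 1 probe set. The fits without a litter also had no litter block, so they changed both choices at once. Of the 10 members 1 passed when genes under the median level were left out, a filter that removes Krt4 and Krt17 from the test, 2 passed without litter 1 and with all probe sets tested, 4 without litter 2, and 3 whichever embryo was left out. The cause of changes other than that filter was not tested. The replicate numbers did not pair the samples, and with a replicate block 195 genes and 3 members passed (limma, adjusted p = 0.038 for Krt17). Where the main count was 189 genes, it was 285 without a litter block, 98 with littermates averaged, 98 without litter 4 and the block, 674 with the Xist covariate, 95 at an adjusted p of 0.01, 291 at 0.1, and 101 (without mutant 4) to 232 (without mutant 2) without 1 embryo, with 121 without control 4. The higher and lower calls split 134 to 55, against 125 to 10 after the epithelial mean was subtracted, 361 to 313 with Xist and 98 to 90 without litter 1 and the block. The shift of basal or stratified over simple keratins, 0.64, was 0.81 without litter 1, 0.46 without litter 2 and 0.56 to 0.70 without 1 embryo. Without members under the median level it was 1.94, with Krt15 alone left of its set. That filter kept Krt15 only through its mutants, as its mean was 8.73 in mutants and 6.69 in controls, beside a median of 7.56. The value of 1.94 is therefore no support for the shift. The same limit holds for that filter among the 26 alternatives of Krt15.

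Signs turned only in genes that did not pass. Without litter 1 the log2 change was 0.056 for Krt13, 0.063 for Krt14, −0.080 for Krt8 and 0.032 for Krt42. Without litter 2 it was −0.052 for Krt6a, 0.11 for Krt18 and −0.017 for Krt79. Without litter 3 it was −0.036 for Krt6a, 0.20 for Krt13 and 0.17 for Krt42, and without litter 4 −0.032 for Krt8. With the epithelial mean subtracted it was 0.12 for Krt13, 0.074 for Krt14, 0.013 for Krt7, 0.11 for Krt18 and 0.13 for Krt42. With the Xist covariate it was 0.068 for Krt13, 0.015 for Krt14, −0.0050 for Krt8 and 0.028 for Krt42. Krt8 was −0.0038 with array medians subtracted, and Krt18 0.013 after quantile normalization and 0.035 with array weights. Without 1 embryo the range was −0.031 to 0.065 for Krt6a, −0.14 to 0.092 for Krt13, −0.15 to 0.058 for Krt14, −0.026 to 0.041 for Krt8, −0.062 to 0.035 for Krt18 and −0.059 to 0.063 for Krt42. Array number and dim signals limit what can be seen in the basal or stratified set.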

Other observations

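With genotype means removed, the simple keratins had positive correlations with each other across the 8 lungs. Pearson's r was 0.85 for Krt8 with Krt19, 0.73 for Krt8 with Krt18 and 0.56 for Krt18 with Krt19. Krt7 had 0.50 with Krt19, 0.49 with Krt8 and 0.23 with Krt18. Krt4 and Krt17 had an r of 0.87, while Krt15 had 0.28 with Krt4 and −0.18 with Krt17. Krt15 and Krt19, neighbours on chromosome 11, had −0.88, and the usual partners Krt4 and Krt13 had −0.86. These are values over 8 arrays of 4 litters, with no test.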
